A study of Rattus norvegicus with 12 samples.

Results

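Astrocytes exposed to PT109B for 6 h were compared directly with astrocytes exposed for 1.5 h, the last and the first treated times of a time course, to describe which transcripts returned towards control, which moved late and which reversed. The comparison used 6 of the 12 libraries in the series, 3 per time, and the controls entered only to place the treated levels. All libraries were RNA-seq of wild-type primary astrocytes (cells taken directly from tissue, not a line) from the midbrain of newborn SD rats, grown in DMEM with 10% fetal bovine serum. The treated groups received 10 µM PT109B, a compound known here by its code name, for 1.5, 3 or 6 h, and the control group is the 0 h sample of the same treatment, so no vehicle group of matched time was analysed here. By its title, the series concerns conversion of astrocytes towards dopaminergic neurons by this compound.

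A stimulus that reaches the nucleus first raises immediate early genes, whose transcription needs no new protein and whose short-lived mRNAs fall again once feedback sets in. Genes that move later often depend on the proteins made in this first phase or on slower loss of stable mRNA. In astrocytes, bone morphogenetic protein (BMP) signalling acts through receptors and Smad proteins on the Id genes, which encode inhibitors of basic helix-loop-helix factors and help to hold glial fate, while Notch acts through the Hes and Hey repressors.

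Between 1.5 and 6 h, early-response genes fell back towards control: on the log2 scale Arc fell by 4.11 ± 0.19, Fosb, of the AP-1 factor, by 4.11 ± 0.23, and the zinc finger factor Egr1 by 2.26 ± 0.17 (SE, 3 libraries per time). Genes of BMP signalling that were near or above control at 1.5 h then fell below it, among them the receptor Bmpr1a (-1.89 ± 0.13), the signal transducer Smad9 (-2.92 ± 0.25) and Id1 and Id3 (-2.30 ± 0.17 and -2.21 ± 0.15). Other genes rose late, such as the glutamine transporter Slc1a5 (1.79 ± 0.12), the hexosamine enzyme Gfpt2 (2.17 ± 0.18) and the retinoic acid enzyme Aldh1a3 (3.94 ± 0.42). Of these, Slc1a5 and Aldh1a3 were already above their controls at 1.5 h, by less than 2-fold in mean level. The levels of cell cycle, microglial and fibroblast genes split within a time, by library.

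The table held 9721 genes, of which 9245 passed the filter on low counts. Levels are CPM, counts relative to a scaled library size (TMM), and differences are log2 fold changes (6 h against 1.5 h) ± SE from edgeR's quasi-likelihood test, with p-values adjusted by Benjamini-Hochberg over the 9245 genes (edgeR adjusted p); genes with a value below 0.05 were called, and "rose" and "fell" are used for called genes. Total counts of the 6 libraries ran from 9368972 to 11968625. Whether the 3 libraries of a time are separate cultures is not in the labels, and the p-values then reflect no more than the scatter of these libraries, part of which can be technical. The table is part of the genes of a rat, kept by a rule not given in the sources used here, so shares of called genes refer to this set.

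In both groups 1 library stood apart from the others of its time. Across genes, replicates 1 and 2 at 1.5 h had r = 0.993 with each other, and replicate 3 had r = 0.901 and 0.899 with them. At 6 h, replicates 2 and 3 had r = 0.992, and replicate 1 had r = 0.946 and 0.947 with them. Replicate 3 at 3 h also stood apart (r = 0.944 with both others) and was closest to 6 h replicate 1 (r = 0.978), while 3 h replicates 1 and 2 were close to 6 h replicates 2 and 3 (r = 0.974 to 0.975). These r values are over genes, which are not independent replicates. The controls had r = 0.986 to 0.994 with each other. With the controls, 1.5 h replicate 3 had r = 0.970 to 0.977, and 1.5 h replicates 1 and 2 had r = 0.887 to 0.916. For 6 h replicate 1 it was 0.945 to 0.947, and for 6 h replicates 2 and 3 it was 0.900 to 0.903. Standing apart thus refers to the libraries of the same time and does not say which libraries are the unusual ones.

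Markers of other cell types moved with these libraries. The summed level of 21 microglia genes was 399 and 386.8 CPM in 1.5 h replicates 1 and 2 but 4122 in replicate 3. The controls were at 3217 to 3902 CPM and the 6 h libraries at 2671 to 3301 CPM. The sum over 12 fibroblast and meningeal genes was 6880 and 7173 CPM in the same 1.5 h libraries and 2036 CPM in replicate 3, with 1944 to 2451 CPM in controls and 1742 to 2583 CPM at 6 h. For 26 mitosis genes the sum was 1991 to 2485 CPM at 1.5 h, 1567 in 6 h replicate 1 and 183 and 202.5 in 6 h replicates 2 and 3. No member of these 3 lists was at 0 in any of the 6 libraries. In bulk RNA fewer cells of a type and less RNA per cell cannot be told apart, and the part of cell makeup in the differences below was not tested. Astrocyte markers were present throughout, with Gfap, the astrocyte intermediate filament, at 934 to 3295 CPM and Aqp4, the water channel of astrocyte endfeet, at 651 to 2045 CPM in the 6 libraries.

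**Figure D1:**
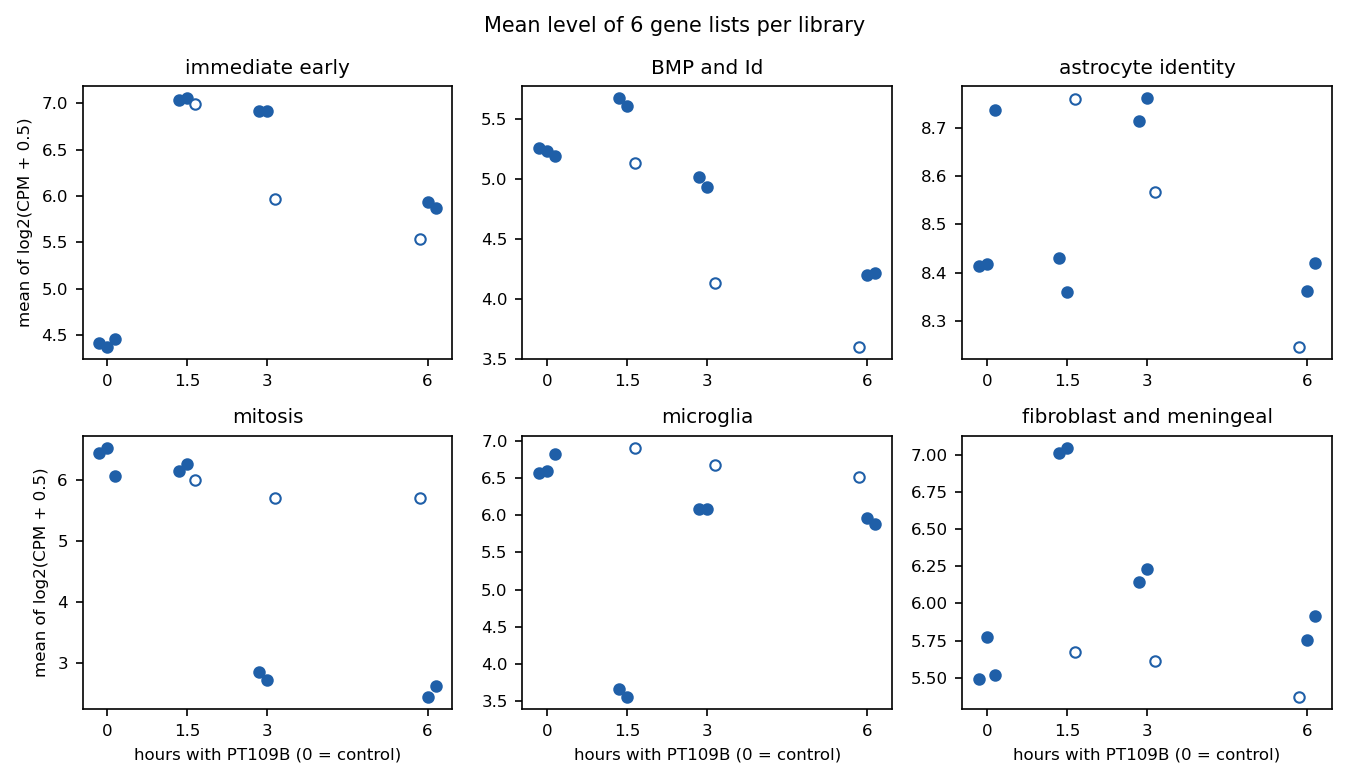
Mean of log2(CPM + 0.5) over the members of 6 gene lists (vertical axes) in each of the 12 libraries, by hours with PT109B (horizontal axes; 0 is control). Each point is 1 library and the open points are 1.5 h replicate 3, 3 h replicate 3 and 6 h replicate 1; the immediate early level of the 1.5 h libraries sits together at 6.99 to 7.05, while the microglia level of the same libraries splits into 3.56 and 3.66 against 6.90.

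Between 1.5 and 6 h, 2020 of 9245 genes were called (21.8%), of which 1231 rose (13.3%) and 789 fell (8.53%), and 940 of them differed at least 2-fold (535 risen and 405 fallen). The median log2 fold change over all tested genes was 0.05. The direction split depended on scaling: 60.94% of called genes rose here, against 54.8% with RLE scaling, 47.43% with TMM over the 6 libraries, 48.16% with the upper quartile, 48.88% with depth from count and FPKM and 45.59% with library size alone, which moved the median of all genes by -0.14 log2. Libraries of the 2 times did not overlap in 4381 genes, 47.4% of all tested, and in 2019 of the 2020 called.

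The number of calls rested on which libraries entered. Without 1.5 h replicate 3 and 6 h replicate 1, 7488 genes were called (81%), 4017 risen (43.5%) and 3471 fallen (37.5%), and they included all 2020. The libraries left out were chosen from these data and those that remain lie close together (r = 0.993 and 0.992). The inclusion of the 2020 therefore cannot show that their calls hold. Without 1.5 h replicate 1 or 2 the count was 70 or 81, without 6 h replicate 2 or 3 it was 50 or 44, without 1.5 h replicate 3 it was 4243 and without 6 h replicate 1 it was 3539. A set of 42 genes was called in all 6 fits that leave out 1 library (25 rose and 17 fell), and 1933 of the 2020 were called in 2 or fewer. The 42 were singled out after these fits were seen, and any other called gene named below lost its call in at least 1 of the fits.

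**Figure D2:**
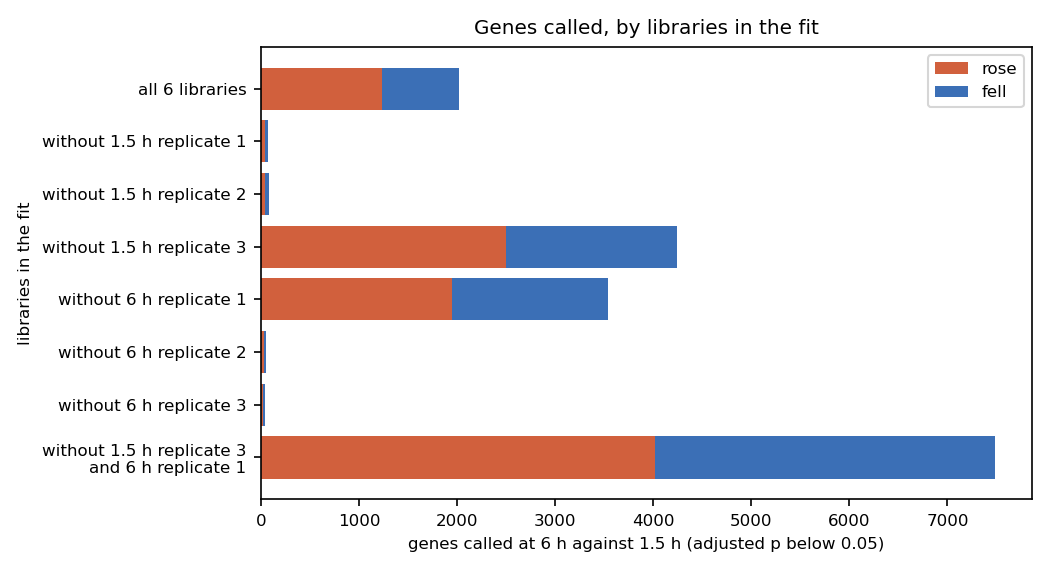
Number of genes called at 6 h against 1.5 h (horizontal axis, from 0; risen and fallen stacked) with all 6 libraries, without each library in turn, and without both libraries that stand apart (vertical axis). The count is 2020 with all libraries, 44 to 81 without 1 of 1.5 h replicates 1 and 2 or 6 h replicates 2 and 3, and 7488 when only those 4 remain.

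Called genes were placed by their levels relative to control, where a departure is at least 2-fold in mean level with no overlap between the libraries and the controls. This comparison and the 1.5 h departure share the 1.5 h libraries, so the classes are descriptions with no test. Among the 2020, 58 were high at 1.5 h and fell back, and 14 were low and rose back. Of the 58, 32 came to within 1.5-fold of control by 6 h. The other 26 were outside that range, either still above control, as Arc was, or past it, as Ddit4 was. Another 388 rose late and 221 fell late without a departure at 1.5 h. A further 11 continued up, 1 continued down, and 8 reversed, 5 from high to low and 3 from low to high. The other 1319 fitted none of these, and 1300 of them departed at neither time.

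**Figure D3:**
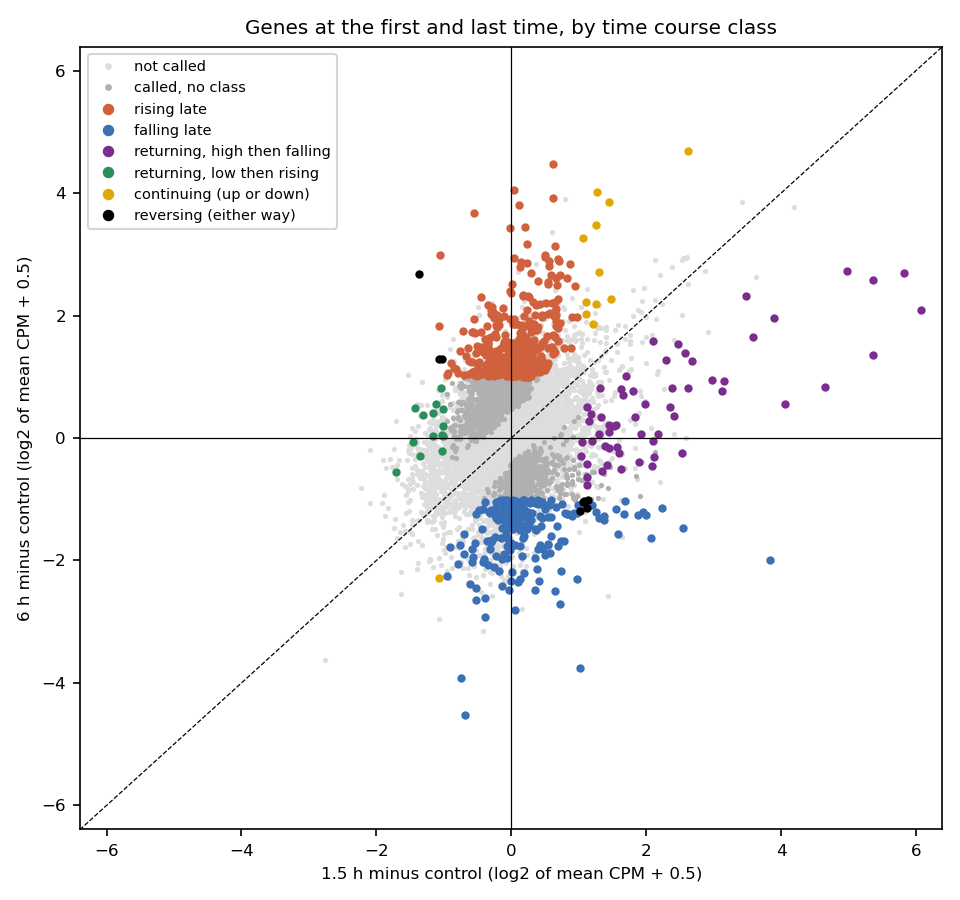
Each tested gene by its difference from control at 1.5 h (horizontal axis) and at 6 h (vertical axis), both as log2 of mean CPM + 0.5, coloured by class; the dashed line marks equal differences. The 58 returning genes lie right of 0 and below the line, and the 388 late risers and 221 late fallers lie above and below the horizontal line at 0. Late fallers far to the right were not counted as departed at 1.5 h because a 1.5 h library was not above every control.

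The returning genes were led by immediate early transcription factors and their like. Of 31 tested members of the immediate early list, 14 fell and 1 rose, with a median log2 fold change of -0.98, beside 8.53% fallen and a median of 0.05 over all tested genes. Sequences upstream of 4 of these genes are shown because such promoters are known for CArG boxes (CC, 6 bases of A or T, GG), the sites of serum response factor, and for cyclic AMP response elements (CRE, TGACGTCA). The stretches are RefSeq promoters of build GRCr8, 250 bases before to 50 after the start site, in the direction of transcription, with motif matches in capitals: a CArG box for Egr2, a CArG box and an EGR motif (GCGGGGGCG or its reverse complement) for Zfp36, and a CRE for Btg2 and Ier2. Egr2 is at chr20:21054392-21054691 on the minus strand, Zfp36 at chr1:92799059-92799358 on the minus strand, Btg2 at chr13:48087641-48087940 on the minus strand and Ier2 at chr19:40399123-40399422 on the plus strand.
Egr2: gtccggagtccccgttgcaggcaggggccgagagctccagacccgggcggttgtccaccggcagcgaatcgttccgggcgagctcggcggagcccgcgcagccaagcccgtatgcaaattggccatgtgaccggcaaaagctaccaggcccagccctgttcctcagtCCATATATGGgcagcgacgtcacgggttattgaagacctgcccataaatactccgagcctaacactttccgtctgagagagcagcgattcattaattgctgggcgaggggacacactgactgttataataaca
Zfp36: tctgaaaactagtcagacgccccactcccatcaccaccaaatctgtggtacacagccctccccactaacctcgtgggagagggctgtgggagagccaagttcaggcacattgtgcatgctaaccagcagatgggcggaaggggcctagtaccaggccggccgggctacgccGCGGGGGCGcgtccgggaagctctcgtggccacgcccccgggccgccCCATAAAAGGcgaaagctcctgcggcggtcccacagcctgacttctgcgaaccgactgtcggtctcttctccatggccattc
Btg2: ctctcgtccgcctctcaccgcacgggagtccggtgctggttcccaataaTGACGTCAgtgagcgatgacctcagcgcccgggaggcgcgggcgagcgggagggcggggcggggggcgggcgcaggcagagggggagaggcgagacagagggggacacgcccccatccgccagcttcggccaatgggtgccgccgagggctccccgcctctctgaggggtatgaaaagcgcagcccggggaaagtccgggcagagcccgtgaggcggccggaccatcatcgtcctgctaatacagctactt
Ier2: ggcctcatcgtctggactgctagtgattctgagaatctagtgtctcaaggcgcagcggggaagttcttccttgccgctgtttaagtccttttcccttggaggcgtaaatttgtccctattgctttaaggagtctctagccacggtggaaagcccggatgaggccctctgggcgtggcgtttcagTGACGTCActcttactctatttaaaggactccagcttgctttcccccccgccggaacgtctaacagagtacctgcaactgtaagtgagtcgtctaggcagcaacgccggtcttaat

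The CArG box matches lie at -83 to -74 from the start site of Egr2 and at -32 to -23 for Zfp36, whose EGR motif is at -79 to -71. The CRE is at -201 to -194 in Btg2 and at -66 to -59 in Ier2. Both strands were searched. Of the 58 genes high at 1.5 h and falling, 38 matched a RefSeq promoter by symbol, and a CArG box was found in 4 (10.53%), against 1.294% of 7111 tested genes with a promoter and 1.643% of all 27457. The 4 were Egr1, Egr2, Srf and Zfp36. A CRE was found in 6 of 38 (15.79%), against 2.784% and 1.912%, namely in Btg2, Ier2, Slc25a25, Rcan1, Irf2bpl and Lmcd1. An EGR motif was in 6 of 38 (15.79%), against 5.808% and 2.783%, and the AP-1 motif (TGANTCA) in 2 of 38 (5.263%), against 5.231% and 7.328%. Among late risers with a promoter (301) a CArG box was in 0.3322% and a CRE in 3.654%, and among late fallers (164) in 1.22% and 1.829%. A match is a description of letters in this window and was not tied to binding.

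Arc, which encodes a synaptic protein induced by activity, was at 98.8, 101 and 119 CPM at 1.5 h and at 6.51, 4.93 and 6.97 CPM at 6 h, against 1.67 to 2.64 CPM in controls. The 1.5 h and 6 h libraries were far apart and the 6 h ones still above control (log2 fold change -4.11 ± 0.19, edgeR adjusted p = 0.0018). Fosb, a subunit of the AP-1 transcription factor, was at 78.6, 77.4 and 121 CPM at 1.5 h and at 5.56, 5.23 and 5.14 CPM at 6 h, against 0.428 to 1.32 CPM in controls. Its groups did not overlap and its fall was of like size (-4.11 ± 0.23, edgeR adjusted p = 0.0026). In both genes 1.5 h replicate 3 was the highest library of its time.

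The Egr genes encode zinc finger transcription factors of the early response. Egr1 was at 1101, 1123 and 1014 CPM at 1.5 h and at 193, 245 and 240 CPM at 6 h, with controls at 26.5 to 44.8 CPM. It fell without overlap but remained above every control (log2 fold change -2.26 ± 0.17, edgeR adjusted p = 0.0038). Egr2 was at 163, 172 and 157 CPM at 1.5 h and at 20.5, 25.8 and 24 CPM at 6 h, and fell by 2.81 ± 0.14 on the log2 scale (edgeR adjusted p = 0.0018). Egr3 and Egr4 fell by 3.92 ± 0.44 and 4.72 ± 0.54 on the log2 scale, and Egr4 ended at 0.257 to 0.41 CPM, within 1.5-fold of control on the scale of log2(CPM + 0.5).

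Hes1, the bHLH repressor downstream of Notch, was at 101, 94.3 and 91.3 CPM at 1.5 h and at 17.7, 20.4 and 16.6 CPM at 6 h, with controls at 10.1 to 10.9 CPM. Its groups did not overlap (log2 fold change -2.39 ± 0.14, edgeR adjusted p = 0.0026), and at 3 h its libraries were already at 21, 22.2 and 8.24 CPM. Klf10, a TGF-beta inducible zinc finger factor, was at 356, 341 and 323 CPM at 1.5 h and at 90.1, 80.8 and 74.3 CPM at 6 h (-2.06 ± 0.14, edgeR adjusted p = 0.0028). Unlike Hes1, Klf10 was still at 334 and 314 CPM in 3 h replicates 1 and 2, and at 164 CPM in replicate 3.

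The rest of the returning genes called in all 6 leave-one-out fits were Btg2, Rnd1, Csrnp1 and Xirp1. Btg2, an antiproliferative partner of the mRNA deadenylase, fell by 1.86 ± 0.13 on the log2 scale to 46.7 to 52 CPM, near its controls of 31.8 to 39 CPM. Rnd1, an atypical small GTPase, went from 97.8 to 102 CPM at 1.5 h to 21.1 to 25.5 CPM at 6 h, inside the control range of 13.3 to 27.1 CPM. Csrnp1, a nuclear factor with an early response, fell by 2.05 ± 0.16, and Xirp1, an actin-binding repeat protein, by 1.98 ± 0.16 on the log2 scale. Xirp1 had not begun to fall at 3 h, when it was at 56.2 to 80.5 CPM against 54.6 to 63.7 CPM at 1.5 h. Over the 58 genes, the median share of the log2 change completed by 3 h was 45.4%.

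Fos, the partner of Jun in AP-1, was at 146, 145 and 71.9 CPM at 1.5 h and at 21.4, 24.9 and 30.6 CPM at 6 h (log2 fold change -2.24 ± 0.31, edgeR adjusted p = 0.011). Its groups did not overlap although 1.5 h replicate 3 was lower than the others. The orphan nuclear receptor Nr4a1 was at 268, 279 and 402 CPM at 1.5 h and at 12.8, 43.2 and 51.3 CPM at 6 h (-3.15 ± 0.53, edgeR adjusted p = 0.015). Here 6 h replicate 1 was the lowest library and the difference was -2.54 without both libraries that stand apart. Per1, a repressor of the circadian clock, fell from 131 to 143 CPM to 27.9 to 44.1 CPM, a range that overlaps the controls at 31.1 to 41.6 CPM (-1.88 ± 0.19). Bbc3, the p53 target PUMA, fell by 1.52 ± 0.15, and Ddit4, an inhibitor of mTORC1 signalling, by 1.77 ± 0.19 on the log2 scale, to 32.3 to 41.7 CPM and below its controls of 51.1 to 66.2 CPM.

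Other genes of the early response were not called between the 2 times. Lif, a cytokine of the IL-6 family, was at 923, 885 and 1201 CPM at 1.5 h and 867, 696 and 683 CPM at 6 h, against 52.3 to 57.6 CPM in controls (log2 fold change -0.42 ± 0.20, edgeR adjusted p = 0.15). Hbegf, a ligand of the EGF receptor, was at 548 to 697 CPM and then 804 to 863 CPM (0.36 ± 0.16), and Dusp5, a nuclear ERK phosphatase, at 146 to 176 CPM and then 156 to 247 CPM (0.44 ± 0.21). Jun, Ptgs2, Myc, Per2 and Gdf15 were also not called, with log2 fold changes of 0.25, -0.15, 0.27, -0.49 and 0.35. Without both libraries that stand apart, 21 of the 31 immediate early genes fell and 7 rose, beside 37.5% and 43.5% of all tested genes. With all 6 libraries, 2 of 17 tested members of the ERK feedback list rose (Spred2 and Etv4) and 1 fell (Errfi1, an inhibitor of the EGF receptor). Over all tested genes 13.3% rose and 8.53% fell in that fit.

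**Figure D4:**
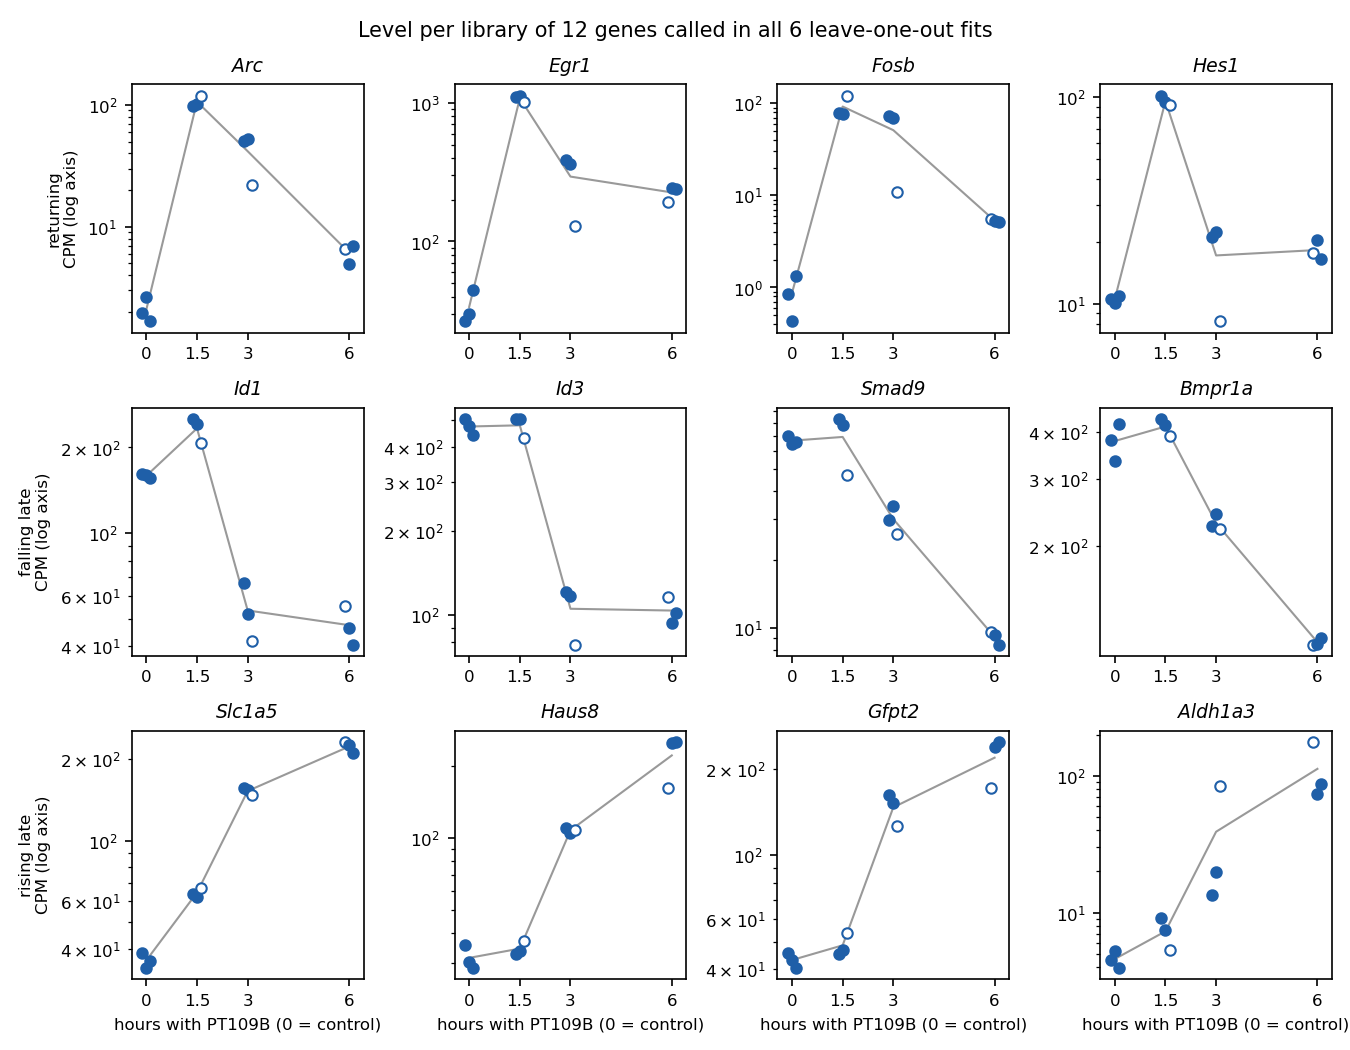
CPM on a log axis (vertical) against hours with PT109B (horizontal; 0 is control) for 4 returning, 4 late falling and 4 late rising genes called in all 6 leave-one-out fits. Each point is 1 library, open points are 1.5 h replicate 3, 3 h replicate 3 and 6 h replicate 1, and the line joins group means; Arc falls from 98.8 to 119 CPM at 1.5 h to 4.93 to 6.97 CPM at 6 h, and Slc1a5 climbs from 62.3 to 67.1 CPM to 211 to 232 CPM.

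The genes that fell late included much of the BMP and Id list. Of its 18 tested members 10 fell and 0 rose by edgeR's quasi-likelihood test (11 and 2 at an unadjusted p under 0.05, 11 and 1 by DESeq2, 9 and 1 by voom, 10 and 0 by limma on FPKM), with a median log2 fold change of -1.59, and the count was 10 under every scaling tried. Over all tested genes 8.53% fell and 13.3% rose. By edgeR without both libraries that stand apart 14 fell and 4 rose, beside 37.5% fallen and 43.5% risen of all tested genes. The 10 were Atoh8, Nog, Smad6, Smad9, Id1, Id3, Id2, Hey1, Id4 and Smad7.

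At the receptor level, Bmpr1a, a type I BMP receptor that is not on the list and was named after its values were seen, was at 433, 418 and 391 CPM at 1.5 h and at 110, 110 and 114 CPM at 6 h, with controls at 335 to 422 CPM. The groups did not overlap (log2 fold change -1.89 ± 0.13, edgeR adjusted p = 0.0028), and the 3 h libraries lay between them at 222 to 243 CPM. Smad9, a receptor-activated Smad, was at 82.9, 77.7 and 46.8 CPM and then at 9.59, 9.34 and 8.46 CPM (-2.92 ± 0.25, edgeR adjusted p = 0.0048). Its 1.5 h replicate 3 was below the controls, at 64.7 to 69.6 CPM, and still above all 6 h libraries.

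The Id genes, direct targets of BMP Smads, ended below control. Id1 was at 252, 242 and 207 CPM at 1.5 h, above its controls of 156 to 161 CPM, and at 55.4, 46.5 and 40.6 CPM at 6 h (log2 fold change -2.30 ± 0.17, edgeR adjusted p = 0.0038). Id3 was at 504, 503 and 432 CPM at 1.5 h, near its controls of 443 to 506 CPM, and at 116, 93.5 and 102 CPM at 6 h (-2.21 ± 0.15, edgeR adjusted p = 0.0034). In both genes the 3 h libraries were already low, at 41.7 to 66.8 CPM for Id1 and 78.2 to 121 CPM for Id3. Id2 was at 97.7, 87.4 and 98.7 CPM at 1.5 h, below its controls of 121 to 145 CPM, and at 28.4, 23.5 and 21.5 CPM at 6 h (-1.95 ± 0.15, edgeR adjusted p = 0.0038). The Id genes thus differed in where they stood at 1.5 h, and each fell without overlap.

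Among the feedback inhibitors of the pathway, Smad6 fell by 3.38 ± 0.37 and Smad7 by 1.40 ± 0.17 on the log2 scale (edgeR adjusted p = 0.0075 and 0.0087). Nog, which encodes the secreted antagonist Noggin, was at 30.5, 38.7 and 9.16 CPM at 1.5 h and at 1.8, 1.54 and 2.51 CPM at 6 h. Its groups did not overlap, but 1.5 h replicate 3 lay below its controls of 13.4 to 18.7 CPM and the others above (-3.74 ± 0.59, edgeR adjusted p = 0.013). Atoh8, a bHLH factor induced by BMP, was at 36.6 to 50 CPM and then at 0.942, 2.77 and 4.34 CPM (-4.09 ± 0.52). The ligand genes were not called: Bmp6 was at 184 to 200 CPM and then at 194, 325 and 333 CPM (0.57 ± 0.23), and Bmp4 had a log2 fold change of -2.43 with overlapping groups. Bambi, a decoy receptor, was likewise not called (0.14 ± 0.29).

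Prpf4b, a kinase of the splicing machinery, and Ndnf, a secreted neurotrophic factor, were the other late fallers called in all 6 fits, with log2 fold changes of -1.59 ± 0.14 and -2.54 ± 0.24. Over the 221 late fallers the median log2 fold change was -1.59, and the median share of the change completed by 3 h was 66.0%.

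Of 13 tested members of the Notch list, 2 rose and 3 fell, beside 13.3% risen and 8.53% fallen of all tested genes. Jag2, a Notch ligand, rose from 0.201, 0.157 and 0.403 CPM to 6.59, 14.4 and 19.7 CPM, from below its controls of 0.428 to 0.942 CPM. Its groups did not overlap (log2 fold change 5.70 ± 0.63, edgeR adjusted p = 0.0075), and few counts lie behind the 1.5 h values. Jag1, a related ligand, rose by a log2 fold change of 1.07, while Dll1, a Delta-like ligand, fell by 2.78 ± 0.58 and Hey1, a repressor downstream of Notch and BMP, by 1.65 ± 0.20 on the log2 scale. The receptors Notch1 and Notch2 were not called (-0.23 and 0.40).

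With the main scaling and all 6 libraries, late risers formed the most numerous class. Late fallers outnumbered them with library size alone (349 and 226), depth scaling (320 and 240) and without 6 h replicate 1 (661 and 622). Without 1.5 h replicate 3 the low then rising class was larger (617 and 428). The late risers had a median log2 fold change of 1.42 and a median of 63.9% of the change completed by 3 h. Slc1a5, a transporter of glutamine and other neutral amino acids, was at 63.9, 62.3 and 67.1 CPM at 1.5 h and at 232, 227 and 211 CPM at 6 h, with controls at 34 to 38.7 CPM. Its libraries lay close together within each time (log2 fold change 1.79 ± 0.12, edgeR adjusted p = 0.0028). Aldh1a3, an enzyme that makes retinoic acid, was at 9.16, 7.45 and 5.34 CPM and then at 176, 74 and 87.2 CPM (3.94 ± 0.42, edgeR adjusted p = 0.0071). In Aldh1a3 the libraries that stand apart were the extremes, and the difference without them was 3.29. Haus8, a subunit of the augmin complex on spindle microtubules, was at 32.7 to 36.9 CPM and then at 163, 251 and 252 CPM (2.69 ± 0.21, edgeR adjusted p = 0.0038).

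Sugar and glycan enzymes were among the 23 late risers called in all 6 fits. Gfpt2, which controls entry into the hexosamine pathway, went from 45.3 to 53.5 CPM to 171 to 248 CPM (log2 fold change 2.17 ± 0.18). Mgat3, a branching enzyme of N-glycans, rose by 2.03 ± 0.20, and Chst1, a carbohydrate sulfotransferase, by 1.71 ± 0.13. These were named after their values were seen and form no list of their own.

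Signalling and cytoskeletal regulators among the 23 were Pak6, a p21-activated kinase (2.54 ± 0.22), Rapgef1, an exchange factor for Rap1 (1.91 ± 0.18), Arhgap22, a GTPase-activating protein (1.94 ± 0.15), Ssh1, a phosphatase of cofilin (1.52 ± 0.14), Shc4, an adaptor of receptor kinases (1.88 ± 0.19), and Inka2, an inhibitor of a related kinase (1.67 ± 0.15), all as log2 fold changes ± SE. Itpr3, a calcium channel of the endoplasmic reticulum, rose from 16.2 to 20 CPM to 55.8 to 81.8 CPM. Genes with known roles in neurons were Nptxr, the neuronal pentraxin receptor, at 102 to 127 CPM and then 351 to 445 CPM, and Nat8l, the enzyme that makes N-acetylaspartate, at 8.85 to 13 CPM and then 42.6 to 45.3 CPM. In each of these 3 the 2 times did not overlap. The chemokine Cxcl3 rose by 1.80 ± 0.16 on the log2 scale. The remaining late risers of the 23 were Layn, Cobll1, Lrrfip1, Slc66a2, Zdhhc18, Ttc7a and Bean1, with log2 fold changes from 1.49 (Zdhhc18) to 3.12 (Bean1). Trim27, a ubiquitin ligase below the 2-fold limit of the classes at both times, went from 43.3 to 46.1 CPM to 108 to 117 CPM around controls of 69.4 to 84.7 CPM.

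The 11 genes that continued up included 2 potassium channel genes. Kcnf1, a modulatory voltage-gated subunit, was at 3.72, 3.06 and 3.72 CPM at 1.5 h and at 19.6, 28.3 and 31.5 CPM at 6 h, with controls at 0.792 to 1.54 CPM (log2 fold change 2.92 ± 0.26, edgeR adjusted p = 0.0048). Kcnk3, the leak channel TASK-1, was at 16.6, 17.9 and 8.56 CPM and then at 52.4, 63.8 and 67.3 CPM (2.09 ± 0.30, edgeR adjusted p = 0.012). Neither overlapped between times, and both were at their 6 h level by 3 h, at 19.6 to 28.3 CPM for Kcnf1 and 56.4 to 61.8 CPM for Kcnk3. The neuronal pentraxin genes Nptx1 and Nptx2 rose by 2.30 ± 0.34 and 0.94 ± 0.17, and Il6, a cytokine, went from 5.02 to 11.6 CPM to 18.8 to 24.5 CPM. Over the 11 genes the median share of the change completed by 3 h was 97.5%. The only gene that continued down was Ptger1, a prostaglandin E2 receptor, at 9.56 to 13.6 CPM and then 3.54 to 5.91 CPM.

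Genes that reversed were few. From low to high, Scn4b, a sodium channel beta subunit, was at 9.36, 11.1 and 24.8 CPM at 1.5 h and at 73.6, 79.6 and 77.8 CPM at 6 h, around controls of 30.2 to 32.6 CPM (log2 fold change 2.35 ± 0.38). The groups did not overlap, although 1.5 h replicate 3 was closer to control than the others. Atp6v0d2, a subunit of the vacuolar proton pump, was at 0.549 to 1.91 CPM and then at 5.48, 33 and 37.1 CPM (4.58 ± 0.89), and Irx2, a homeobox factor, rose by 2.54 ± 0.51. From high to low, Kif19, a kinesin of cilia, was at 13.5 to 17.8 CPM and then at 2.46 to 3.94 CPM around controls of 5.36 to 9.42 CPM (-2.27 ± 0.29). Mbp, a myelin protein, was at 58.4, 60.4 and 23.8 CPM and then at 15.8, 5.13 and 7.31 CPM (-2.33 ± 0.54), with a difference of -0.58 between the 2 libraries that stand apart.

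The genes that were low at 1.5 h and rose back were 14, and 13 of them were within 1.5-fold of control at 6 h. Tor4a, a torsin ATPase, was at 13.4, 17 and 44.7 CPM and then at 75.4, 85.9 and 82.1 CPM around controls of 51.2 to 57.3 CPM (log2 fold change 1.70 ± 0.46). Irs3, an insulin receptor substrate, went from 2.51 to 4.33 CPM to 11 to 14.3 CPM (2.01 ± 0.32), above its controls of 5.9 to 8.85 CPM. This class held 709 genes without both libraries that stand apart.

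Several of the largest differences lay in 2 libraries of a time. H19, an imprinted non-coding RNA, was at 144 and 140 CPM in 1.5 h replicates 1 and 2, at 2.62 CPM in replicate 3 and at 0.821 to 1.71 CPM at 6 h (log2 fold change -6.30 ± 1.47, edgeR adjusted p = 0.032). Myt1, a zinc finger factor of the neural lineage, was at 22.6, 24.5 and 1.01 CPM and then at 0.308 to 0.685 CPM (-4.90 ± 1.19), and Col1a1, a chain of collagen I, at 2610, 2737 and 465 CPM and then at 314 to 406 CPM (-2.47 ± 0.64). In these 3 genes 1.5 h replicate 3 was below its controls, and the difference between the 2 libraries that stand apart was -0.49, -0.35 and -0.20. Lrrtm2, a synaptic adhesion protein, and Igsf21 were also high in 1.5 h replicates 1 and 2 only, with log2 fold changes of -5.36 ± 1.09 and -4.34 ± 1.17. Their 1.5 h replicate 3 lay inside the control range for Lrrtm2 and below it for Igsf21. Between the 2 libraries that stand apart the differences were -0.99 and -0.53. Lmod1, an actin nucleator of smooth muscle, was at 45.4, 52.3 and 12.3 CPM and then at 0.8 to 0.942 CPM, with a log2 fold change of -5.40 ± 0.63 and a difference of -3.15 between the libraries that stand apart.

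Rises of Oasl and Tnf, genes of innate immunity, started from 1.5 h levels that split by library. Oasl, an interferon-induced antiviral gene, was at 3.92, 3.61 and 40.4 CPM at 1.5 h and at 255, 264 and 272 CPM at 6 h, with controls at 14.2 to 17.8 CPM (log2 fold change 4.05 ± 1.02, edgeR adjusted p = 0.038). Tnf, an inflammatory cytokine, was at 6.44, 9.09 and 47 CPM and then at 186, 148 and 147 CPM, with controls at 37.6 to 52.9 CPM (2.94 ± 0.78, edgeR adjusted p = 0.043). The groups did not overlap in either gene, and replicate 3 at 1.5 h was above its controls for Oasl and among them for Tnf. Between the 2 libraries that stand apart the differences were 2.64 and 1.97. The microglia sum was lowest in the 1.5 h libraries with the lowest Oasl and Tnf, and its part in these values was not tested. Of 23 tested NF-kB and cytokine genes 5 rose (Relb, Nfkb2, Il6, Cxcl2 and Tnf) and 1 fell (Cxcl12), with a median of 0.67, beside 13.3% risen and 8.53% fallen of all tested genes. Of 19 interferon response genes 1 was called, Oasl. Of 21 microglia genes 0 were called by edgeR's test (1 rose at an unadjusted p under 0.05 and 1 by DESeq2, and 0 by voom or limma on FPKM), with a median log2 fold change of 0.77, and without both libraries that stand apart 18 rose and 1 fell, beside 43.5% and 37.5% of all tested genes.

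Cell cycle genes were lower at 6 h in replicates 2 and 3. Of 26 mitosis genes 0 were called by edgeR's test (6 fell at an unadjusted p under 0.05, 9 by DESeq2, 7 by voom and 3 to 5 by limma on FPKM), although 21 of 26 did not overlap between times, beside 47.4% of all tested genes. Their median log2 fold change was -1.77. Mki67, the proliferation marker, was at 231, 274 and 240 CPM at 1.5 h and at 159, 9.34 and 9.83 CPM at 6 h, with controls at 301 to 375 CPM (-2.06 ± 1.12, edgeR adjusted p = 0.20). Every 6 h library was below every 1.5 h library, and 6 h replicate 1 was far above the other 6 h libraries. Without both libraries that stand apart 26 of 26 mitosis genes and 24 of 24 DNA replication genes fell, in a fit where 81% of all tested genes were called and 37.5% fell. With all 6 libraries, 8 of 24 DNA replication genes fell, beside 8.53% of all tested genes, with a median of -1.20. The count was 17 by DESeq2 and at an unadjusted p under 0.05, 15 by voom and 13 by limma on FPKM. The fallen genes were led by Pole and Pold1, subunits of replicative polymerases (-1.75 ± 0.42 and -1.38 ± 0.39), and by Mcm6 of the replicative helicase (-1.35 ± 0.30). Among 14 G1 regulators 3 fell (Cdkn1c, Mxd1 and Cdkn2c) and 1 rose (Ccnd1), beside 8.53% fallen and 13.3% risen of all tested genes. The count of risen G1 regulators was 0 with RLE, upper quartile, library size and depth scaling, and 3 by DESeq2 and by voom.

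Astrocyte identity genes did not move as a block. Of 17 tested, 6 were called and fell, beside 8.53% of all tested genes, with a median of -0.06. Without both libraries that stand apart 9 rose and 8 fell, beside 43.5% and 37.5% of all tested genes. Gfap was at 3295, 3236 and 2906 CPM at 1.5 h and at 1558, 934 and 1127 CPM at 6 h, with controls at 1900 to 2708 CPM (log2 fold change -1.38 ± 0.24, edgeR adjusted p = 0.016). The groups did not overlap. Besides Id3, the others that fell were Fgfr3, a fibroblast growth factor receptor, Slc4a4, a bicarbonate transporter, and the gliogenic factors Nfib and Nfia. Apoe and Glul, which encode a lipid carrier and glutamine synthetase, were not called (0.58 and -0.06), with Glul at 0.60 without both libraries that stand apart. Of 20 reactive astrocyte genes 2 were called and rose, beside 13.3% risen of all tested genes. They were Cd44, a hyaluronan receptor, and Clcf1, a cytokine of the IL-6 family.

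In the list of progenitor and proneural factors 7 of 17 tested genes fell and 1 rose, with a median of -0.64, beside 8.53% fallen over all tested genes. Sox2, a factor of neural stem cells, was at 170, 174 and 111 CPM at 1.5 h and at 64, 70.7 and 69.7 CPM at 6 h, with controls at 171 to 175 CPM (log2 fold change -1.15 ± 0.20, edgeR adjusted p = 0.015). No library of one time reached those of the other, and 1.5 h replicate 3 was lower than the others of its time. Others that fell were Nr2e1, Pax6, Pou3f2, Insm1 and Myt1, and Olig2, a bHLH factor of the oligodendrocyte lineage, rose by a log2 fold change of 1.13.

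Of 21 neuronal genes 3 were called and fell (Mapt, Stmn3 and Nrcam) and 0 rose, beside 8.53% fallen and 13.3% risen of all tested genes. Their median was -0.87. By DESeq2 10 fell and 4 rose, and by voom 1 fell and 1 rose. Without both libraries that stand apart 15 fell and 5 rose, beside 37.5% and 43.5% of all tested genes. Tubb3, a neuronal tubulin, was at 126, 118 and 46.2 CPM and then at 109, 188 and 183 CPM, with controls at 40.5 to 54 CPM (log2 fold change 0.73 ± 0.41, edgeR adjusted p = 0.22). Its groups overlapped. Mapt, which encodes tau, was at 68, 78.6 and 15.8 CPM and then at 10.2 to 12.9 CPM (-2.28 ± 0.58), with 1.5 h replicate 3 inside the range of its controls, 14.4 to 32.3 CPM.

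**Figure D5:**
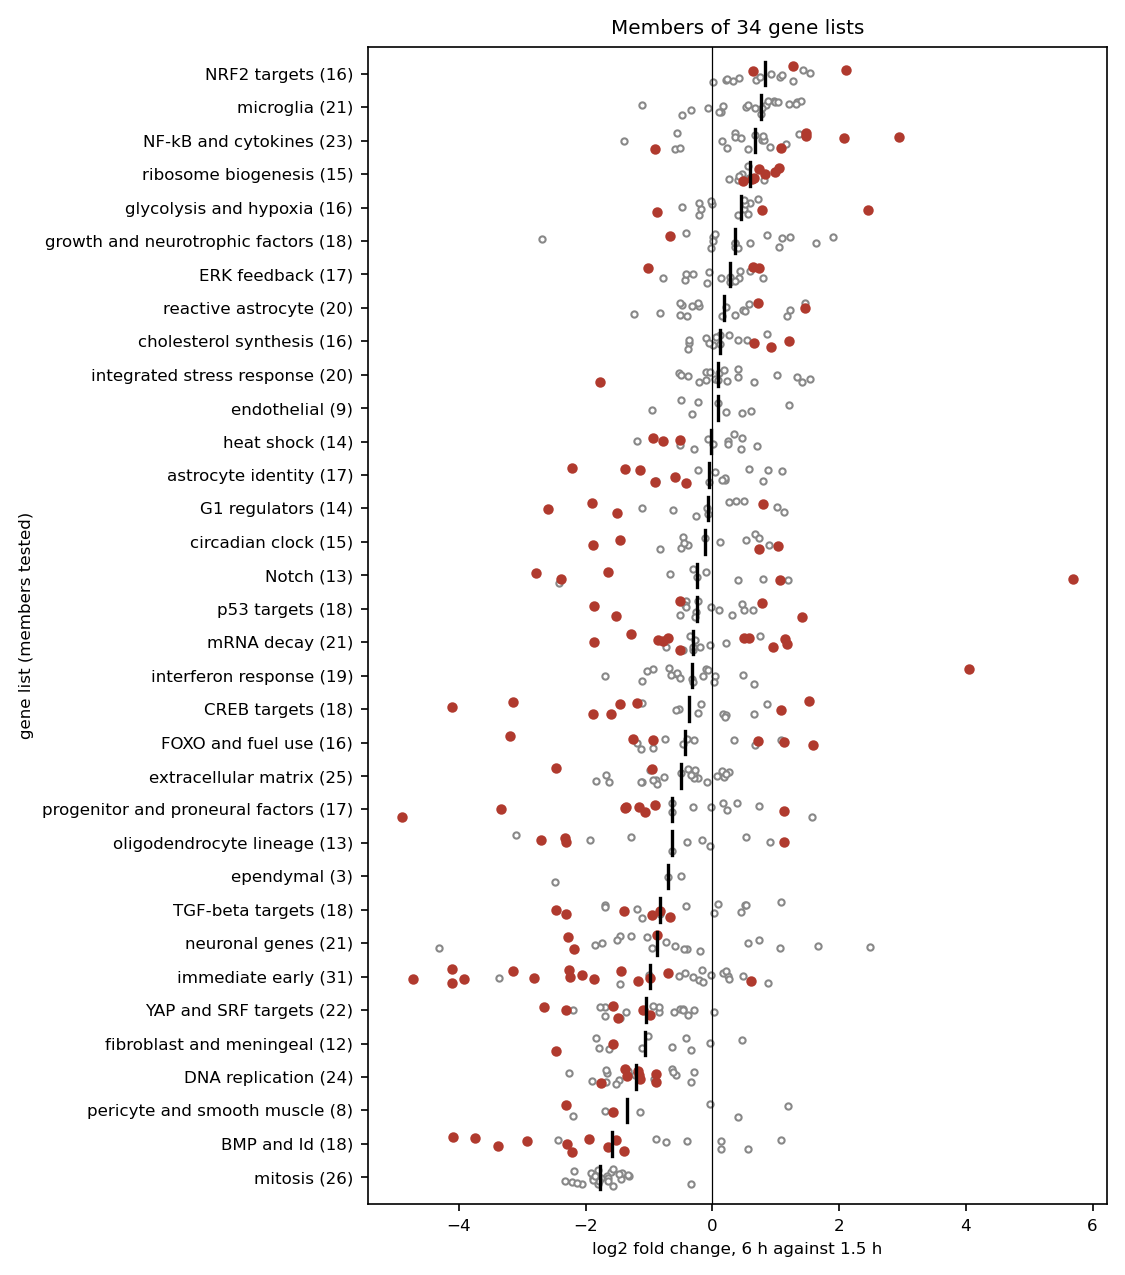
Log2 fold change at 6 h against 1.5 h (horizontal axis) of each tested member of 34 gene lists (vertical axis, ordered by median, number tested in brackets). Filled points are called genes, open points were not called and bars are list medians; the medians run from -1.77 (mitosis, with no filled point) and -1.59 (BMP and Id) to 0.83 (NRF2 targets).

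Stress and metabolic lists are given beside 13.3% risen and 8.53% fallen of all tested genes. Of 16 NRF2 targets, genes of the oxidative stress response, 3 were called and rose (Hmox1, Gclm and Gsr), with a median of 0.83, and the count of risen genes was 2 under the other scalings, 8 by DESeq2, 4 by voom, 2 by limma on FPKM and 10 at an unadjusted p under 0.05. Without both libraries that stand apart 15 of the 16 rose, beside 43.5% of all tested genes. Hmox1, heme oxygenase, was at 689, 581 and 989 CPM and then at 1390, 4341 and 3976 CPM (log2 fold change 2.10 ± 0.47, edgeR adjusted p = 0.028). The groups did not overlap, and 6 h replicate 1 was much lower than the others. Ribosome biogenesis had 7 of 15 called and risen, led by Nop56, a core protein of box C/D particles at 93.8 to 134 CPM and then 175 to 288 CPM. The count was 4 or 5 of 15 under the other scalings and 15 of 15 without both libraries that stand apart. Of 16 cholesterol genes 3 rose, among them Msmo1, a sterol oxidase, with a log2 fold change of 1.21. Hmgcs1, on the same list, was not called and was at 1969, 620 and 695 CPM at 6 h.

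Of 16 FOXO and fuel use genes 3 rose and 3 fell, with Angptl4, an inhibitor of lipoprotein lipase, at 164, 151 and 230 CPM and then at 37.7, 10.2 and 11.4 CPM (log2 fold change -3.19 ± 0.57, edgeR adjusted p = 0.017). The groups did not overlap and both lay below the controls of 293 to 327 CPM. Pdk4, a kinase that restrains pyruvate oxidation, was at 2.12 to 2.72 CPM and then at 0.942 to 1.44 CPM, far below its controls of 17.6 to 21.1 CPM at both times, and was not called (-1.12 ± 0.42, edgeR adjusted p = 0.096). Ndrg1, a hypoxia-responsive gene, went from 16.2 to 35.7 CPM to 116 to 142 CPM (2.46 ± 0.33) and was 1 of 2 risen among 16 glycolysis and hypoxia genes. Of 20 genes of the integrated stress response 1 was called and fell, Ddit4, and of 14 heat shock genes 3 fell, Dnajb4, Hsp90aa1 and Dnaja1.

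The mRNA decay list had 5 risen and 6 fallen of 21, and the CREB target list 2 risen and 6 fallen of 18, beside 13.3% risen and 8.53% fallen of all tested genes. The circadian, p53 and growth factor lists are read beside the same shares. In the first, Ago2, the slicer of RNA interference, rose by 1.17 ± 0.18 and Pan2, a deadenylase subunit, fell by 1.28 ± 0.23 on the log2 scale. In the circadian list 2 of 15 rose (Cry1 and Tef) and 2 fell (Per1 and Nfil3), and in the p53 list 2 of 18 rose (Tnfrsf10b and Aen) and 3 fell (Btg2, Bbc3 and Gadd45b). Of 18 growth and neurotrophic factors 1 was called and fell, Cntf.

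Matrix and contractile genes included some that were high in 1.5 h replicates 1 and 2 only. Of 25 extracellular matrix genes 2 fell, Col1a1 among them, of 18 TGF-beta targets 6 fell and of 22 YAP and SRF targets 6 fell, with medians of -0.50, -0.82 and -1.04, beside 8.53% fallen of all tested genes. For YAP and SRF targets the count was 13 by DESeq2, 2 by voom and 3 to 4 by limma on FPKM. For TGF-beta targets it was 10, 5 and 6. The share of matrix genes that fell was close to that of all tested genes. Acta2, smooth muscle actin, was at 513, 590 and 131 CPM and then at 78.4 to 87.3 CPM (log2 fold change -2.31 ± 0.53, edgeR adjusted p = 0.031). Its groups did not overlap, and 1.5 h replicate 3 lay within the range of its controls, 105 to 216 CPM. Of the marker lists of other cell types, 2 of 12 fibroblast and meningeal genes, 2 of 8 pericyte and smooth muscle genes and 3 of 13 oligodendrocyte genes fell, 1 oligodendrocyte gene (Olig2) rose, and 0 of 9 endothelial and 0 of 3 ependymal genes were called by edgeR's test. At an unadjusted p under 0.05, 1 endothelial gene rose and 2 ependymal genes fell, against 0 and 1 by DESeq2, 0 and 0 by voom and 0 and 1 by limma on FPKM.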

How the data were processed

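The 12 RNA-seq libraries fall into 4 groups of 3, with replicate numbers from the sample labels. TRIzol extraction and the NEBNext Ultra kit are named in the labels' protocols. The authors deposited, per the file headers, an estimated count (an expected count, not normalized) beside an FPKM for each gene in each library. The submitters' processing notes name StringTie 2.2.1. Aligner, build and annotation were not given in the sources used here. Because 9.49% of count values, in 1343 genes, were not whole, counts were rounded. Of 9721 genes, 60 had no symbol and 58 symbols stood on more than 1 line. Some genes are not reported here. Near-identical copies and overlapping genes were not examined. The FPKM values of the authors served alternatives only.

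The test was edgeR 4.0.16 in R 4.3.3: filterByExpr on the 2 times (476 genes removed), TMM over 12 libraries, and a robust quasi-likelihood fit to the 6 libraries with 4 residual degrees of freedom and a prior count of 0.125. SE comes from the fold change and the F value. Differences from control use log2(mean CPM + 0.5), and the share of change by 3 h is the 1.5 to 3 h difference over the 1.5 to 6 h difference on that scale. The procedure was tested on simulated data, with counts drawn independently for each gene and library. Such data hold no library that stands apart, so that test cannot show how the calls behave with such libraries. Library totals were 9368972 to 12498050 counts.

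The comparison, the 34 gene lists and the libraries left out together were chosen with earlier results of these data known. Genes to name were the 12 risen and 12 fallen with the largest fold change (called, no overlap, mean CPM of 2 or more in the higher group), 6 per class, up to 3 called and 2 uncalled per list, and a set chosen by name; not all are printed. Genes called in all 6 leave-one-out fits, further list members and Bmpr1a were added after their values were seen. Alternatives were other scalings and filters, a 12-library fit, the replicate block, DESeq2 1.42.0, limma 3.58.1 (voom, and trend on log2 FPKM), a fold threshold of 1.2 and leaving out libraries. Libraries of a group differed by more than sampling noise. Promoters were matched by symbol to RefSeq sequences of GRCr8.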

Additional observations from a re-analysis of the deposited data

How the results depend on the processing

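Called named genes kept their direction in every setting run, and counts of calls did not hold. Of 113 called genes among 183 named, 106 to 112 kept their call under the other scalings, 113 in the fit to 12 libraries, with DESeq2 and without both libraries that stand apart, and 11 to 19 without 1.5 h replicate 1 or 2 or 6 h replicate 2 or 3. The fit without both leaves libraries that lie close together at each time, so it cannot show that calls hold. With voom 95 kept their call, and with limma on log2 FPKM 105 (pseudocount 0.1) and 98 (pseudocount 1). Without 6 h replicate 1 the number was 97, and with the replicate block it was 2. Log2 fold changes of 10 named genes, none called with all 6 libraries, changed sign. Leaving out 1 library gave -0.34 to 0.72 for Glul (-0.06 with all), -0.61 to 0.41 for Hmgcs1 (0.13), -0.80 to 0.94 for Eng (-0.23), -0.32 to 0.49 for Stat2 (0.02), -0.21 to 0.36 for Fn1 (0.08), -0.05 to 0.39 for Bambi (0.14), -0.010 to 0.39 for Sparc (0.15), -0.067 to 0.79 for Pde4b (0.19), -0.30 to 0.21 for Igfbp2 (-0.04) and -0.33 to 0.13 for Ptgs2 (-0.15). Without both that stand apart, Glul was at 0.60, Eng at 0.37, Hmgcs1 at -0.55 and Ptgs2 at 0.10. With voom Glul was at 0.14, Eng at 0.12 and Hmgcs1 at -0.10, and with log2 FPKM (pseudocounts 0.1 and 1) Glul at 0.039 and 0.039, Hmgcs1 at -0.21 and -0.20, Stat2 at -0.064 and -0.060, Fn1 at -0.035 and -0.035, Bambi at -0.030 and -0.027 and Sparc at -0.019 and -0.018. Stat2 was at -0.022 with RLE, -0.068 with upper quartile, -0.091 with library size, -0.070 with depth, -0.078 with TMM over 6 and -0.045 with DESeq2, and Fn1 at -0.031 with upper quartile, -0.099 with library size, -0.073 with depth and -0.0086 with TMM over 6. Bambi was at -0.029 with library size and -0.0048 with depth, and Sparc at -0.021 with library size. The cause was not tested. Levels near 1 CPM rest on about 10 counts a library, so folds of such genes are imprecise.

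Called genes were 2020 (1231 rose, 789 fell). Leaving out 1 library gave 44 to 4243 (25 to 2502 rose, 19 to 1741 fell), leaving out both that stand apart 7488 (4017 and 3471), the 12-library fit 3549 (1953 and 1596), glmTreat 1171 (732 and 439), and DESeq2 3024, with 1579 fallen. Replicate numbers are not said to mark shared cultures, so the numbers were not taken to pair the libraries. The deviations of same-numbered libraries had r = -0.26, 0.18 and -0.26, and those of the 2 libraries that stand apart had r = 0.27. With 1 library apart in each group, the signs follow which libraries stand apart, so these values cannot decide on pairing. The replicate block gave 3 called genes (0 rose, 3 fell), all 3 high at 1.5 h and falling, with 0 in each other class. It put Glul at 0.17, Eng at 0.098 and Hmgcs1 at -0.095.

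Class sizes moved as follows, in the order high then falling (58), low then rising (14), rising late (388), falling late (221), continuing up (11), continuing down (1), reversing high to low (5) and low to high (3). Leaving out 1 library gave 10 to 305, 0 to 617, 21 to 622, 9 to 661, 1 to 24, 0 to 1, 0 to 43 and 0 to 33. Leaving out both that stand apart gave 385, 709, 754, 751, 61, 12, 59 and 36. A departure of 1.5-fold gave 95 low then rising, 777 rising late, 457 falling late, 37 continuing up, 9 continuing down, 16 and 24 reversing. A departure of 3-fold gave 37, 1, 132, 76, 1, 0, 0 and 0. Late risers were 240 with depth scaling and 226 with library size, where late fallers were 349, continuing down 2 and high-to-low reversals 3 (2 and 3 with depth scaling). DESeq2 gave 341 falling late and 25 low then rising. Low then rising held 9 with RLE, 7 with upper quartile, 5 with TMM over 6, 22 with voom and 30 in the 12-library fit, which had 17 continuing up and 2 continuing down. A mean count of at least 50 left 3 high-to-low reversals.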
